A study of Mus musculus with 3 samples.

Results

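The surfactant and lamellar body genes read here are Sftpa1, Sftpb, Sftpc, Sftpd, Abca3, Lamp3, Napsa, Slc34a2 and Cxcl15. They are 9 of the 32285 genes in each deposited matrix, taken by gene symbol for their known roles, with earlier results of these data known. All 9 were detected in each of the 3 libraries. Their raw unique molecular identifier (UMI) counts, each a tag at the 3′ end of 1 transcript molecule, were read in cells and in free RNA of mouse lung. The libraries were 3′ droplet single-cell RNA libraries, 1 per group, each pooled from 3 mice 16 to 20 weeks old. Sorted alveolar macrophages, CD11b+ macrophages, T cells and EPCAM+ epithelial cells had been mixed in equal parts before capture.

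The PPARγ-/- tumour library came from Ccsp-rtTA;TetO-EGFRL858R mice with Pparγfl/fl alleles and Csf1rCre, a Cre recombinase driven from the Csf1r promoter, which is active in the macrophage lineage. Mice of the WT tumour library carried the same 2 transgenes and the Pparγfl/fl alleles without the Cre. In the WT healthy library the 2 transgenes stood without floxed alleles, so floxing and tumour state differ together between the WT groups. Feed in every group contained doxycycline at 625 ppm, which induces the mutant EGFR through the club cell promoter of Ccsp-rtTA. How the healthy mice stayed free of tumours is not given in the sources used here.

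Pulmonary surfactant is the film of phospholipid and protein that lowers surface tension in the alveolus. Alveolar type 2 (AT2) cells make it and store it in lamellar bodies, organelles related to lysosomes. The hydrophobic proteins encoded by Sftpb and Sftpc travel with the lipid, whereas the collectins encoded by Sftpa1 and Sftpd bind microbes. ABCA3 pumps phospholipid into the lamellar body, LAMP3 lies in its membrane, and napsin A, the product of Napsa, is an aspartic protease that helps process the precursor of surfactant protein B. Slc34a2 encodes the apical phosphate transporter that recovers phosphate from surfactant breakdown, and Cxcl15 encodes a chemokine of the lung epithelium that attracts neutrophils. Macrophages take up and degrade used surfactant, and mice that lack PPARγ in macrophages are known to accumulate lipid in the lung.

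The 9 genes lie on 6 chromosomes of the mouse assembly GRCm38 (mm10), and the 2 collectin genes are close neighbours. On chromosome 14 Sftpa1 (41131782 to 41136452, plus strand) stands beside Sftpd (41172214 to 41185149, minus strand), and Sftpc lies farther along (70520949 to 70524081, minus strand). Slc34a2 (53038081 to 53071664) and Cxcl15 (90794534 to 90803067) share the plus strand of chromosome 5 at a distance. The others are Sftpb on chromosome 6 (72304610 to 72314371, plus strand), Napsa on chromosome 7 (44572380 to 44586862, plus strand), Lamp3 on chromosome 16 (19653378 to 19706375, minus strand) and Abca3 on chromosome 17 (24351950 to 24410201, plus strand).

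Promoters are shown for the 6 members with an entry in the RefSeq promoter set used, and Sftpc, Sftpd and Napsa had none. The 6 genes were high together in AT2 cells and include both secreted products and lamellar body membrane genes. Each line holds the 200 bases before the start site in RefSeq on GRCm38.p6, written 5′ to 3′ on the gene's strand. The Slc34a2 start site used by RefSeq lies inside the gene's longest annotated span. Capitals mark matches to 3 motifs searched on both strands: TNAAGTG for NK2 factors such as NKX2-1, TGTTTNC for forkhead factors such as FOXA1 and FOXA2, and TTNNGNAA for C/EBP factors.
Sftpa1 chr14:41131588-41131787 (plus strand): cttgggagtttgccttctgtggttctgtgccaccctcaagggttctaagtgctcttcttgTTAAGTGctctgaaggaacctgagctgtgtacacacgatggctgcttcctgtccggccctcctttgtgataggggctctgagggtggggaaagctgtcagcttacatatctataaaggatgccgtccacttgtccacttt
Sftpb chr6:72304410-72304609 (plus strand): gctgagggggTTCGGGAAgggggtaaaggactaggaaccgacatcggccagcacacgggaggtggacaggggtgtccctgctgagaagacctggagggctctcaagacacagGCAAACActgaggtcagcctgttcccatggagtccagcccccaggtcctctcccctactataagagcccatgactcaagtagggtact
Cxcl15 chr5:90794334-90794533 (plus strand): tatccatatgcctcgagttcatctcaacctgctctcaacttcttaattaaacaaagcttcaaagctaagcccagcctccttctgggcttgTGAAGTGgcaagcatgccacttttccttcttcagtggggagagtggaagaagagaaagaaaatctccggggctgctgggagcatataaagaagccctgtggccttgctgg
Slc34a2 chr5:53049153-53049352 (plus strand): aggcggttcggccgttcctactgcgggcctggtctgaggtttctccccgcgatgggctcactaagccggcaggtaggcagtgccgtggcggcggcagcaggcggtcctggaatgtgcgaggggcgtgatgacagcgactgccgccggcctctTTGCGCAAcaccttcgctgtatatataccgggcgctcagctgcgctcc
Abca3 chr17:24351823-24352022 (plus strand): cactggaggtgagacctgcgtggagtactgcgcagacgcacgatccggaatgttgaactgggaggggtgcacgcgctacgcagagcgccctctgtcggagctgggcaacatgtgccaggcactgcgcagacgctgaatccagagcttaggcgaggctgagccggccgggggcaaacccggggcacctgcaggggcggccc
Lamp3 chr16:19706366-19706565 (minus strand): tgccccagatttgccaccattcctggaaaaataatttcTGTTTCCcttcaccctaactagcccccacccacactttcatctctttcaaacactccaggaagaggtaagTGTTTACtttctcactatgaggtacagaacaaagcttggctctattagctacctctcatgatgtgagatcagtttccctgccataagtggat

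Counting from the start site, with -1 the last base before it, the NK2 letters stood at -140 to -134 in Sftpa1 and at -110 to -104 in Cxcl15. Forkhead letters were found at -88 to -82 of Sftpb, on the minus strand, and at -162 to -156 and -92 to -86 of Lamp3. The C/EBP letters lay at -190 to -183 of Sftpb and at -48 to -41 of Slc34a2, where the match reads the same on both strands. None of the 3 motifs occurred in the Abca3 window. Of 32851 mouse promoter windows of the same length, 7.99% held the NK2 letters, 14.1% the forkhead letters and 30% the C/EBP letters, against 2 of 6 members for each motif. No motif overlapped another. The base composition split the members too, with a GC content of 66.5% in Slc34a2 and 67.5% in Abca3, and 44.0% to 59.5% in the other 4.

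The libraries held 44548318 UMIs in PPARγ-/- tumour, 46148658 in WT tumour and 30454790 in WT healthy, and 4995, 4268 and 2894 cells were kept. Cells of different libraries shared 3 to 6 barcodes per pair of libraries. Xist stood at 0.305, 0.177 and 1233 CPM (UMIs of a gene scaled to a total of 1e6) over all cells of the PPARγ-/- tumour, WT tumour and WT healthy libraries, whereas the labels give both sexes in similar numbers, so sex and tumour state cannot be told apart. Each group had a single library, so the groups could not be tested against each other. All intervals below are exact 95% Poisson or binomial intervals that cover counting error only, and differences are given as higher or lower between these libraries. Classes were named by markers that include none of the 9 genes, which were also kept out of the clustering.

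AT2 cells carried the 9 genes at levels that made up about 1 in 5 of all their UMIs. Their share of a cell's UMIs had a median of 22.2% in the 163 AT2 cells of PPARγ-/- tumour, 18.2% in the 181 of WT tumour and 21.3% in the 26 of WT healthy. Sftpc by itself took 16.1%, 12.7% and 15.4% of a median cell's UMIs. At least 1 Sftpc UMI was found in 98.8%, 100% and 96.2% of AT2 cells. Median depth was 12702, 13952 and 10078.5 UMIs per AT2 cell, and the median share of mitochondrial UMIs was 5.81%, 5.66% and 6.79%. The AT2 name rested on 11 markers, all of them raised in the larger of the AT2 clusters. Nkx2-1, the transcription factor of lung epithelium that drives surfactant genes, was measured at 378 CPM in PPARγ-/- tumour, 384 CPM in WT tumour and 487 CPM in WT healthy. Ptprc, the pan-leukocyte gene encoding CD45, was near 0 in these cells, at 2.05, 6.57 and 4.16 CPM.

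Among the secreted products, Sftpc was the most abundant by far. Summed over AT2 cells it reached 151084 CPM (150596 to 151573) in PPARγ-/- tumour, 127643 (127220 to 128066) in WT tumour and 151264 (149713 to 152826) in WT healthy. Its level was lower in the WT tumour library than in either of the others, which overlapped each other within counting error. Sftpa1 too was lowest in WT tumour, with 23248 CPM (23057 to 23441) in PPARγ-/- tumour, 17178 (17023 to 17334) in WT tumour and 22444 (21850 to 23051) in WT healthy. Sftpb lay within a narrow range, at 12453, 12911 and 12684 CPM, and was the member that differed least between the libraries. The second collectin, Sftpd, was at 5983, 4739 and 4999 CPM, higher in PPARγ-/- tumour than in both WT libraries. Cxcl15 stood at 11833 CPM in PPARγ-/- tumour, 10248 in WT tumour and 10359 in WT healthy, where the WT libraries overlapped.

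Genes of the lamellar body membrane and of phosphate recovery ran in another order, with the highest level in WT healthy. Abca3 was at 788 CPM (753 to 824) in PPARγ-/- tumour, 849 (815 to 884) in WT tumour and 1322 (1181 to 1476) in WT healthy. Its share of cells with a UMI, after thinning each cell to 1000 UMIs, was 48.5%, 59.1% and 76.9%, against 2.84%, 3.29% and 2.92% of T cells, whose median depths were 2693, 3027 and 3766 UMIs. Lamp3 ran the same way, with 2121, 2542 and 3489 CPM. Slc34a2 measured 4136 CPM in PPARγ-/- tumour, 4888 in WT tumour and 6483 in WT healthy. For these 3 genes none of the counting intervals overlapped between the libraries except those of Abca3 in the tumour libraries, which met from 815 to 824. Napsa ran against them, at 2560 CPM in PPARγ-/- tumour, 2093 in WT tumour and 1593 (1437 to 1761) in WT healthy.

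Single AT2 cells showed the same order as the sums. The median cell held 731, 799 and 1198 CPM of Abca3, 2070, 2358 and 2941 CPM of Lamp3, and 4117, 4771 and 6254 CPM of Slc34a2 in PPARγ-/- tumour, WT tumour and WT healthy. Napsa ran the other way there too, with medians of 2612, 1964 and 1587 CPM. The spread between cells was wider than the gaps between libraries: Abca3 had quartiles of 520 and 1039 CPM in PPARγ-/- tumour, 479 and 1086 in WT tumour and 1002 and 1678 in WT healthy. Sftpa1 likewise had quartiles of 15332 and 29352 CPM in PPARγ-/- tumour, 9348 and 22076 in WT tumour and 14636 and 30909 in WT healthy. For all 9 genes the cells of each library overlapped those of the others.

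**Figure D1:**
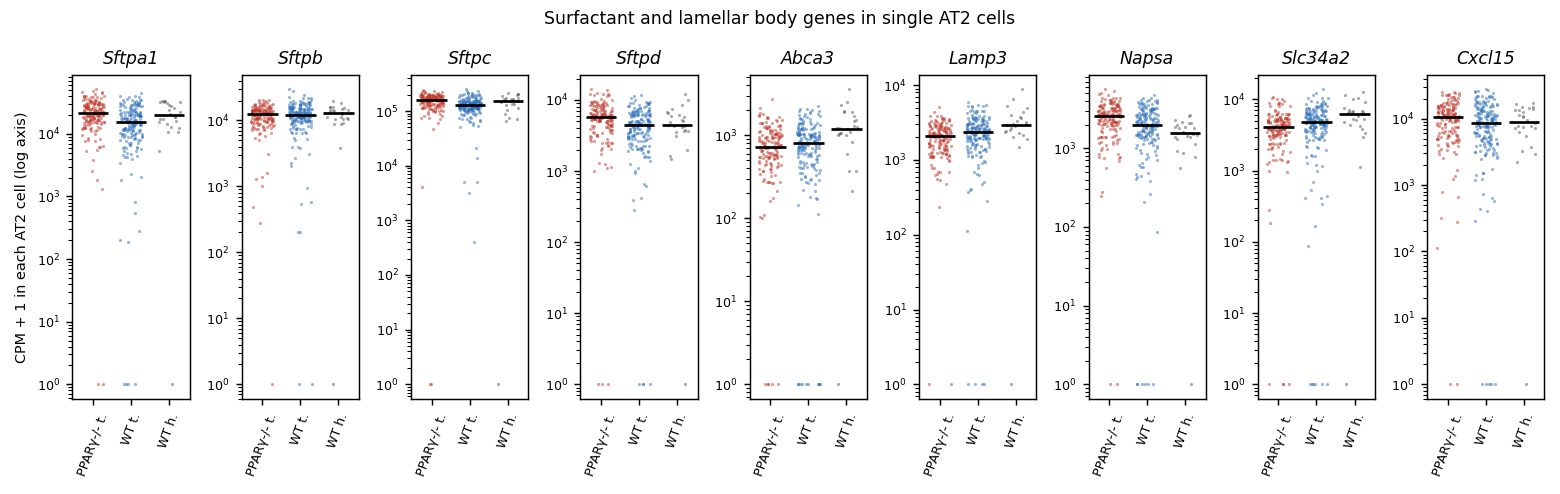
CPM of each gene in single AT2 cells on a log axis (1 added), with 1 point per cell, for PPARγ-/- tumour (163 cells), WT tumour (181) and WT healthy (26); black bars are medians. Cells of the 3 libraries overlap for every gene, with the highest medians of Abca3, Lamp3 and Slc34a2 in WT healthy and the highest Napsa median, 2612 CPM, in PPARγ-/- tumour.

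The comparison of PPARγ-/- tumour with WT tumour reads AT2 cells next to macrophages with and without the Csf1rCre. Genes at least 1.5-fold apart, with 1 outside the counting interval of the ratio, were counted as higher or lower; this describes size and tests nothing. By it 0 of 9 members were higher, where 2.76% of the 10220 genes measured in AT2 cells were higher, and 0 of 9 were lower, against 6.26%. The log2 ratios (PPARγ-/- tumour over WT tumour) were above 0 for Sftpa1 at 0.44, Sftpd at 0.34, Napsa at 0.29, Sftpc at 0.24 and Cxcl15 at 0.21. They were below 0 for Lamp3 at -0.26, Slc34a2 at -0.24, Abca3 at -0.11 and Sftpb at -0.05. The median over the members was 0.21, or 1.15-fold, beside -0.11 over all measured genes. Relative to that median of all genes Lamp3 and Slc34a2 stayed below 0, at -0.15 and -0.13, whereas Sftpb and Abca3 turned to 0.06 and 0.00. Lamp3, Sftpb and Abca3 were also above 0 at a mitochondrial limit of 5%, at 0.17, 0.21 and 0.06, and at 20%, at 0.0055, 0.13 and 0.11, so the direction of these 3 genes depends on that limit.

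AT2 cells fell into 2 main clusters, called E0 and E3 here, and a small cycling one, and the mix differed: E0 held 123 of 163 cells in PPARγ-/- tumour, 108 of 181 in WT tumour and 24 of 26 in WT healthy. Within E0 the median over members was 0.10 between the tumour libraries, and within E3 (33 cells in PPARγ-/- tumour and 64 in WT tumour) it was -0.05. By the same rule 0 of 9 members were counted in E0, where 2.32% of 9140 genes were higher and 6.41% lower, or in E3, where 3.7% of 7272 genes were higher and 4.02% lower. Sftpa1 stood at 24497 CPM in PPARγ-/- tumour against 18466 in WT tumour within E0, and at 18845 against 16671 within E3. Lamp3 was lower in PPARγ-/- tumour in both clusters, at 2285 against 3017 CPM in E0 and 1595 against 2008 CPM in E3. Cxcl15 was on different sides, at 13599 CPM in PPARγ-/- tumour against 12657 in WT tumour within E0 and 6753 against 7965 within E3. E0 of WT healthy held Cxcl15 at 10688 CPM. The part of the cluster mix in the difference over all AT2 cells was not tested.

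For WT tumour against WT healthy the same rule counted 1 of 9 members as lower, Abca3, where 6.02% of 9072 measured genes were lower, and 0 of 9 as higher, against 7.35%. Abca3 was 0.642-fold its WT healthy level in WT tumour, a log2 ratio of -0.64 (-0.81 to -0.47). Lamp3 at -0.46, Slc34a2 at -0.41, Sftpa1 at -0.39 and Sftpc at -0.24 were below 0 without reaching 1.5-fold. Sftpd at -0.08 and Cxcl15 at -0.02 lay close to 0, as did Sftpb at 0.03, and Napsa was above 0, at 0.39. The median over the members was -0.24 beside 0.13 over all genes, and relative to the median of all genes Sftpb turned to -0.10. Only 26 AT2 cells stood on the WT healthy side, and within E0, with 24 of them, Abca3 at -0.45 no longer reached 1.5-fold, so that 0 members were counted there beside 7.36% of 7555 genes higher and 6.62% lower. At a mitochondrial limit of 5%, where 6 WT healthy AT2 cells were left, Abca3 was at 0.095 and Sftpd at 0.26. The WT tumour library enters both comparisons, so the 2 sets of ratios are not independent of each other.

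**Figure D2:**
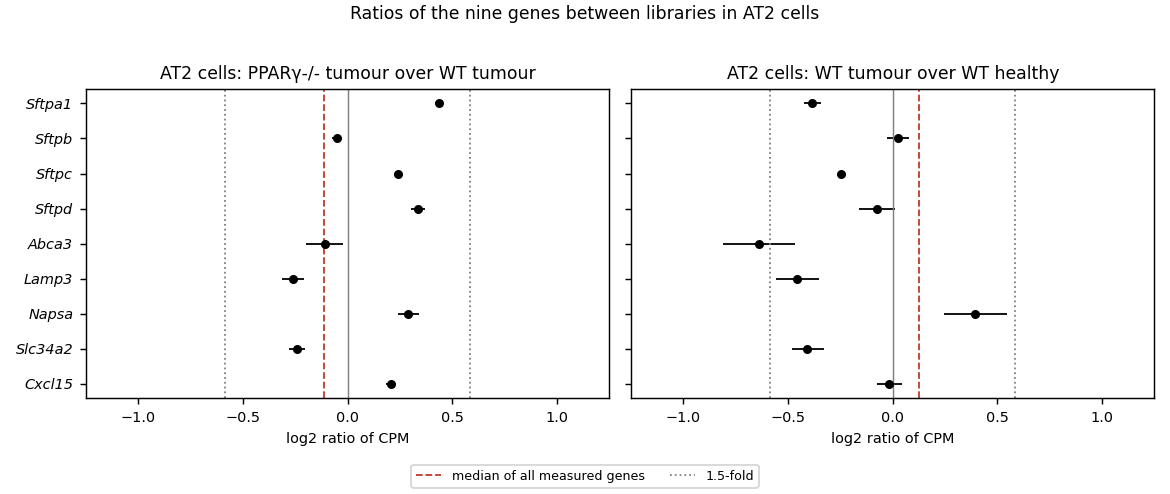
Log2 ratio of CPM in AT2 cells for each gene with its 95% counting interval, PPARγ-/- tumour over WT tumour on the left and WT tumour over WT healthy on the right; the dashed line is the median of all measured genes and dotted lines mark 1.5-fold. Abca3 on the right, at -0.64, is the 1 point beyond 1.5-fold.

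Cell by cell, most members went weakly to moderately together. The Spearman correlation over AT2 cells was highest for the 2 collectins, Sftpa1 with Sftpd, in the tumour libraries, at 0.66 in PPARγ-/- tumour and 0.66 in WT tumour, with 0.39 in WT healthy. Abca3 with Slc34a2, both membrane transporters, gave 0.34, 0.58 and 0.51. Lamp3 with Slc34a2 gave 0.35, 0.52 and 0.73, the highest value of WT healthy, and Lamp3 with Cxcl15 gave 0.50, 0.51 and 0.51. Sftpa1 with Cxcl15 was alike, at 0.50, 0.55 and 0.50. Among pairs of a collectin and a membrane gene, Sftpa1 with Slc34a2 gave 0.00, 0.04 and -0.08, whereas Sftpa1 with Lamp3 gave 0.28, 0.29 and 0.28. These correlations are a description over 163, 181 and 26 cells that share a library, and depth per cell enters them: Sftpa1 itself had a correlation of 0.24 with a cell's UMIs in PPARγ-/- tumour.

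Outside AT2 cells the members were found in part and at lower levels. An epithelial cluster was named Krt7 epithelium from a marker set that includes Krt7, Krt8 and Cldn4. Krt7 itself does not set it apart: in WT tumour it was at 970 CPM here and 1182 CPM in alveolar type 1 cells. The cluster held 6 cells in PPARγ-/- tumour, 56 in WT tumour and 0 in WT healthy, so its values are given for WT tumour. There Sftpb was at 4437 CPM, with 2051 CPM in the median cell, and a UMI in 76.8% of cells thinned to 1000 UMIs, against 5.34% of T cells. A single cell held 35.8% of its UMIs, and 3105 CPM were left without it. Sftpd was at 2006 CPM with a UMI in 58.9% of thinned cells, against 1.90% of T cells, and Napsa at 598 CPM with 44.6%, against 0.732%. Median depth was 11989 UMIs in the Krt7 cells and 3027 in the T cells. Sftpc was at 9100 CPM with 33.4% of the UMIs in 1 cell, the median cell held 657 CPM, and 50% of thinned cells had a UMI beside 38.0% of T cells. Sftpa1 had 45.3% of its UMIs in 1 cell, 1970 CPM without it and a UMI in 33.9% of thinned cells. The gap to T cells was thus wide for Sftpb, Sftpd and Napsa and narrower for Sftpc.

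In alveolar type 1 (AT1) cells, the flat cells of gas exchange, much of the Sftpc sum came from single cells. Sftpc summed to 2154 CPM in 30 cells of PPARγ-/- tumour, 10473 in 77 cells of WT tumour and 295 in 6 cells of WT healthy, but 86.3%, 49.3% and 42.9% of those UMIs came from 1 cell each. The median AT1 cell had 238, 601 and 166 CPM, and 5637 CPM were left in WT tumour without its highest cell. In WT tumour Sftpd was at 899 CPM with a UMI in 29.9% of thinned cells, and Napsa at 405 CPM with 24.7%. Both shares were above those given above for T cells of that library, and 1 cell held 34.0% and 19.7% of the UMIs. In AT1 cells of PPARγ-/- tumour both genes had a UMI in 10% of thinned cells. Abca3 was the steadier member there, at 195 CPM in PPARγ-/- tumour and 233 CPM in WT tumour, with at most 16.8% of UMIs in 1 cell, and above its free RNA level of 93.9 and 124 CPM; WT healthy had 1 UMI, or 42.2 CPM, below its free RNA level of 64.7 CPM. Nkx2-1 was as high in AT1 cells, at 358, 427 and 380 CPM, as in AT2 cells, at 378, 384 and 487 CPM.

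In CPM, Sftpc of the airway classes was no higher than that of T cells, and in club cells the collectin Sftpa1 was the highest member. Club or secretory cells, which line the bronchioles, had Sftpa1 at 1286 CPM in PPARγ-/- tumour (7 cells) and 3869 in WT tumour (12 cells), and none were found in WT healthy. The highest single cell held 35.2% and 40.8% of these UMIs, and thinned cells with an Sftpa1 UMI made up 57.1% and 41.7%, against 5.94% and 6.59% of T cells. Cxcl15 was at 841 and 658 CPM, Sftpb at 488 and 972 CPM, and Sftpd at 686 and 304 CPM, with 69.1% of the Sftpd UMIs of PPARγ-/- tumour in 1 cell. Sftpc, at 84.8 and 355 CPM, lay under its T cell level of 263 and 486 CPM. Median depth was 27987 and 5238 UMIs in club cells against 2693 and 3027 in T cells, and depth enters this order. Per cell, club cells held more Sftpc, with 12 UMIs in 7 cells and 35 in 12. T cells had 1197 UMIs in 1617 cells and 2165 in 1366. Napsa had 0 UMIs and Lamp3 1 UMI in club cells of each library. Ciliated cells held Abca3 at 167 CPM in PPARγ-/- tumour, 166 in WT tumour and 140 in WT healthy, on 27, 49 and 15 UMIs. Each level was above that of Abca3 in free RNA of the same library, at 93.9, 124 and 64.7 CPM. Their Sftpc, at 155, 271 and 28.0 CPM, lay below that of T cells in the tumour libraries, and in WT healthy it rested on too few UMIs to be ordered. Median depth of the ciliated cells was 8128, 8353 and 11050 UMIs. Sftpa1 was at 656, 33.8 and 18.7 CPM in them, with 83.0% of the UMIs of PPARγ-/- tumour in 1 cell.

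A further cluster of 18, 20 and 16 epithelial cells carried all 11 AT2 markers but was led by endothelial and myeloid genes such as Ptprb, Ctss and Cybb, and was left unnamed. Its Sftpc was at 86052 CPM in PPARγ-/- tumour, 38344 in WT tumour and 63578 in WT healthy. These cells enter no AT2 value above.

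**Figure D3:**
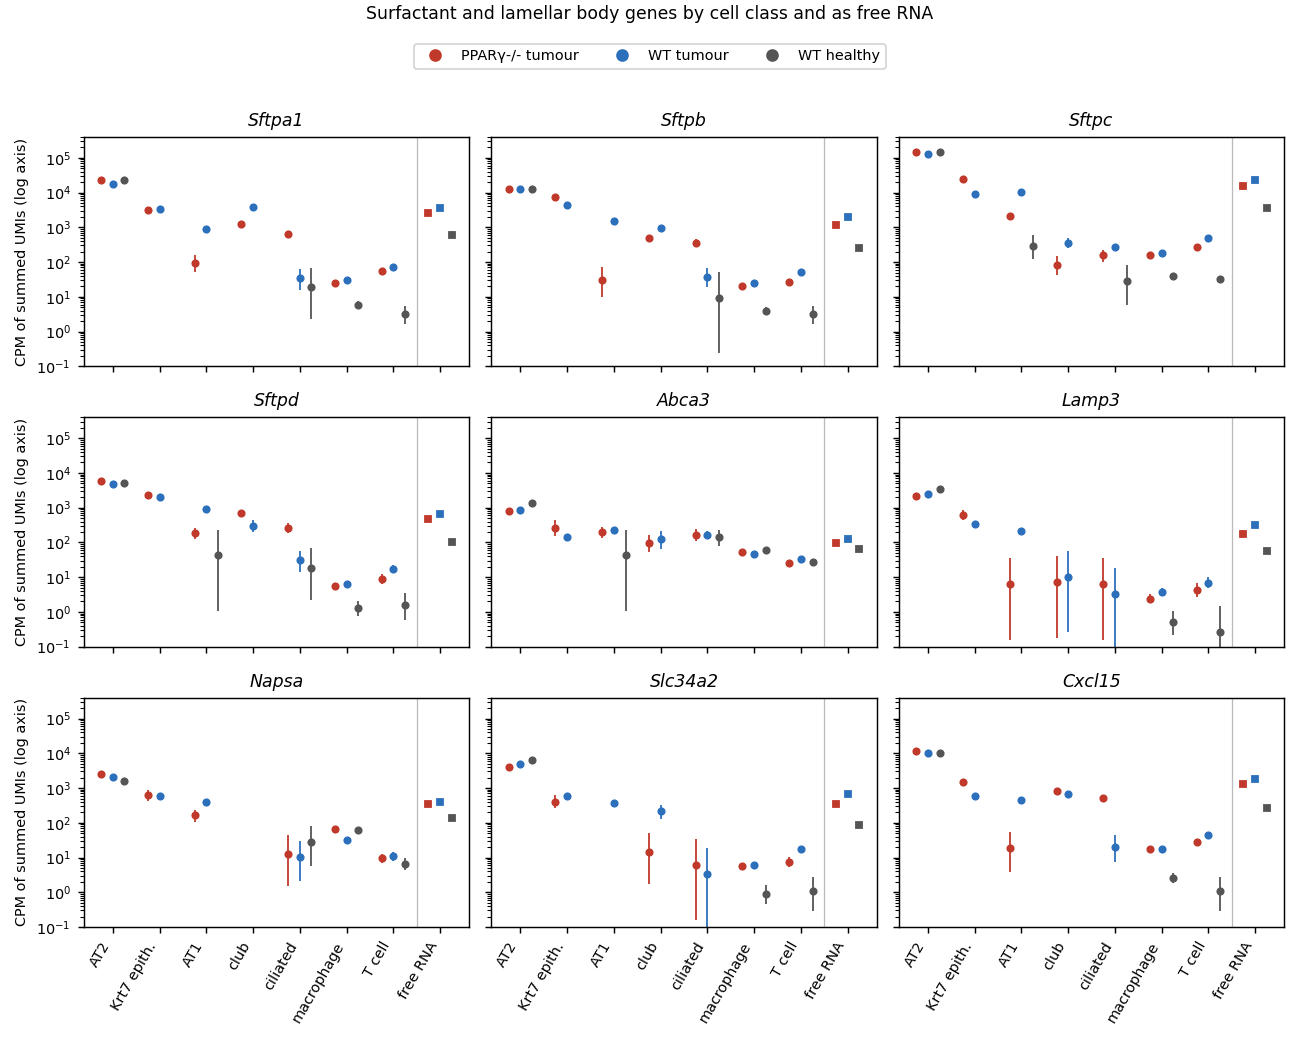
CPM of summed UMIs on a log axis for the 9 genes in 5 epithelial classes, macrophages, T cells and free RNA (squares), coloured by library, with 95% Poisson intervals; classes with 0 UMIs or 0 cells have no point. Each gene is highest in AT2 cells, and Abca3 and Napsa sit higher in macrophages, relative to free RNA, than the other 7 genes.

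Free RNA, read from barcodes of 10 to 100 UMIs, carried the AT2 profile into each library. The 9 genes together made up 22364 CPM of it in PPARγ-/- tumour, 32946 in WT tumour and 5120 in WT healthy. Sftpc was at 15800, 23475 and 3556 CPM, Sftpa1 at 2668, 3494 and 599 CPM, and Abca3 at 93.9, 124 and 64.7 CPM. The Sftpc share of the 9 genes in free RNA, 70.7%, 71.3% and 69.5%, was close to that in AT2 cells, at 70.5%, 69.7% and 70.5%. Napsa and Abca3 departed most in WT healthy, with 2.64% and 1.26% of the 9 in free RNA against 0.742% and 0.616% in AT2 cells. AT2 cells exceeded free RNA by 9.56-fold in PPARγ-/- tumour, 5.44-fold in WT tumour and 42.5-fold in WT healthy for Sftpc.

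Macrophages held Sftpc at about 1 part in 100 of its free RNA level. Its CPM was 161 in PPARγ-/- tumour (1315 cells), 187 in WT tumour (1261) and 39.1 in WT healthy (999). As a share of free RNA this was 1.02% (0.982 to 1.05), 0.796% (0.769 to 0.825) and 1.10% (1.00 to 1.20). T cells, which are not known to transcribe surfactant genes, had 1.66%, 2.07% and 0.942%, so by this share macrophages lay below T cells in the tumour libraries. Thinned macrophages with an Sftpc UMI made up 11.7%, 18.2% and 4.10%, against 23.6%, 38.0% and 4.00% of T cells. Median depths were 16021, 14226 and 12855 UMIs in macrophages and 2693, 3027 and 3766 in T cells. Without thinning, cells with 0 Sftpc UMIs made up 25.1%, 13.1% and 71.0% of macrophages and 51.5%, 24.3% and 88.0% of T cells. Counted per cell the order in the tumour libraries was thus the other way, and depth enters both readings. For Sftpa1, Sftpb, Sftpd, Lamp3, Slc34a2 and Cxcl15 the macrophage level was likewise 0.867% to 1.76% of free RNA in all 3 libraries. How many AT2 cells were broken and how much RNA each released were not measured, and cannot be told apart here. The number of AT2 cells kept differed too, at 163, 181 and 26, and its part in the free RNA level was not tested.

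The macrophage sum of Sftpc rested on few cells in the PPARγ-/- tumour library. There the highest cell held 752 of 3437 UMIs, the top 1% of cells held 41.5%, and the median cell 1 UMI. WT tumour macrophages were more even, with 13.9% of UMIs in the top 1% and a median of 2, and WT healthy ones had 18.2% and a median of 0. Cells at 10000 CPM of Sftpc or more numbered 3, 1 and 0. Without them, a cut chosen after seeing these values, the share of free RNA was 0.645% in PPARγ-/- tumour and 0.747% in WT tumour, which turned the order of the tumour libraries round. By cluster, the macrophages differed within a library as well: the smaller cluster 7, of the interstitial or monocyte-derived class, had 485 CPM in PPARγ-/- tumour (51 cells) and 490 in WT tumour (175 cells), against 160 in the main macrophage cluster of PPARγ-/- tumour and 161 in that of WT tumour. Alveolar cluster 10, with 29 of its 30 cells in WT tumour, was higher still in that library, at 905 CPM (649 to 1228), on 41 UMIs. These clusters differed in depth. Over all libraries the median was 1538 UMIs per cell in cluster 10 and 6198 in cluster 7. It was 16436.5 in cluster 2, the main one of PPARγ-/- tumour, and 14760 in cluster 9, the main one of WT tumour. The part of depth in these CPM differences was not tested.

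Abca3 and Napsa were the 2 exceptions in macrophages. Abca3 was at 53.2 CPM in PPARγ-/- tumour, 46.0 in WT tumour and 62.1 in WT healthy, which is 56.6%, 37.1% and 95.9% of its free RNA level. Had it followed free RNA in the Sftpc proportion it would have been at 0.955, 0.988 and 0.711 CPM, so the measured values were 55.7, 46.5 and 87.2 times as high. Napsa was at 67.7, 32.6 and 62.7 CPM, or 19.1, 10.3 and 42.1 times the level at the Sftpc proportion. T cells departed for Abca3 as well, at 25.03, 33.0 and 26.9 CPM or 16.0, 12.8 and 44.1 times that level. For Napsa T cells departed only slightly in the tumour libraries, by 1.67 and 1.34 times, and by 5.21 times in WT healthy, on 25 UMIs.

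**Figure D4:**
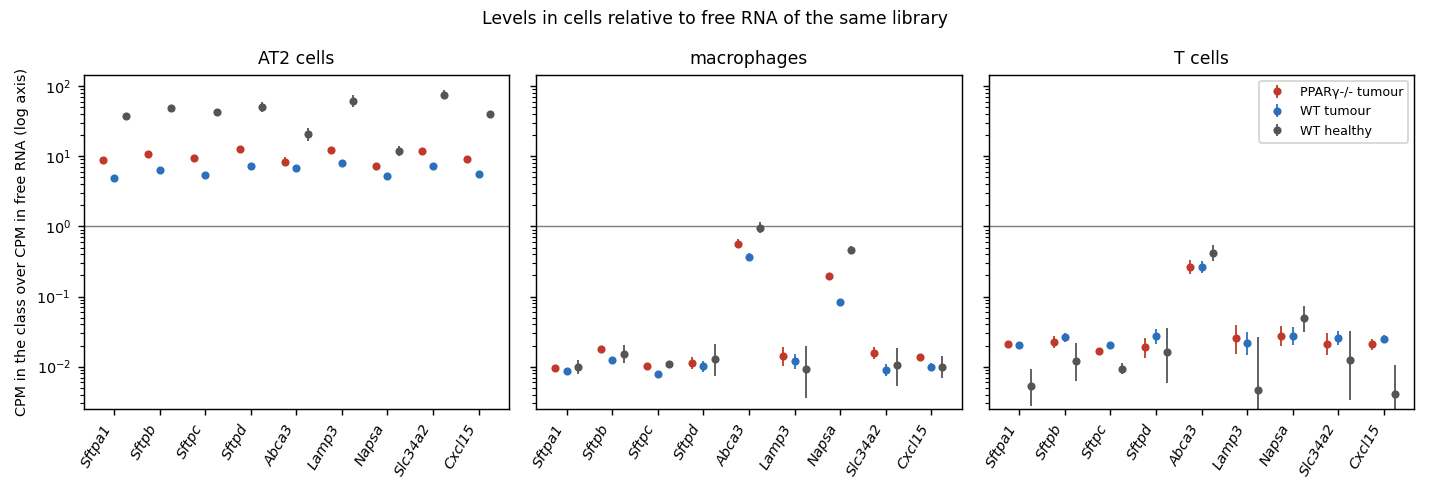
CPM of each gene in AT2 cells, macrophages and T cells divided by its CPM in free RNA of the same library (log axis, 95% counting intervals); the grey line marks equal levels. AT2 cells sit above 1 for all 9 genes, 7 genes sit near 0.01 in macrophages, and Abca3 and Napsa stand above them.

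Napsa was also found well above free RNA proportions in monocytes, dendritic cells and B cells. Nonclassical monocytes, the patrolling subset, had 865 CPM in PPARγ-/- tumour, 677 in WT tumour and 527 in WT healthy, with a UMI in 57.2%, 45.5% and 43.5% of thinned cells, against 0.928%, 0.732% and 0.541% of T cells. Classical monocytes held 632, 627 and 418 CPM, conventional dendritic cells of type 2 held 554, 565 and 417 CPM, and B cells 300, 311 and 196 CPM. Endothelial cells were near the T cell level, with 14.0, 9.63 and 12.3 CPM. Among immune classes with at least 50 cells in each library the order was nonclassical monocytes, classical monocytes with type 2 dendritic cells, whose intervals overlapped, then B cells, macrophages and T cells, except that classical monocytes and nonclassical monocytes of WT tumour overlapped too.

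Abca3 had a flatter pattern. Endothelial cells were at 62.0, 80.5 and 64.4 CPM, nonclassical monocytes at 45.8, 72.0 and 67.7 CPM, type 2 dendritic cells at 44.0, 43.9 and 46.1 CPM, and natural killer cells had 0 UMIs in every library. D330041H03Rik, which overlaps Abca3, had 112, 68 and 61 UMIs in T cells beside 114, 147 and 101 of Abca3, and whether counting used the strand is not given in the sources used here. In macrophages the overlapping gene was small, with 25, 38 and 59 UMIs beside 1138, 818 and 827 of Abca3. Gm15396, which overlaps Napsa, had at most 14 UMIs in AT2 cells and 2 in macrophages of any library. Lamp3, known in humans as a marker of mature dendritic cells, was not detectable in migratory dendritic cells beyond free RNA here, with 0, 2 and 0 UMIs in 11, 27 and 13 cells.

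**Figure D5:**
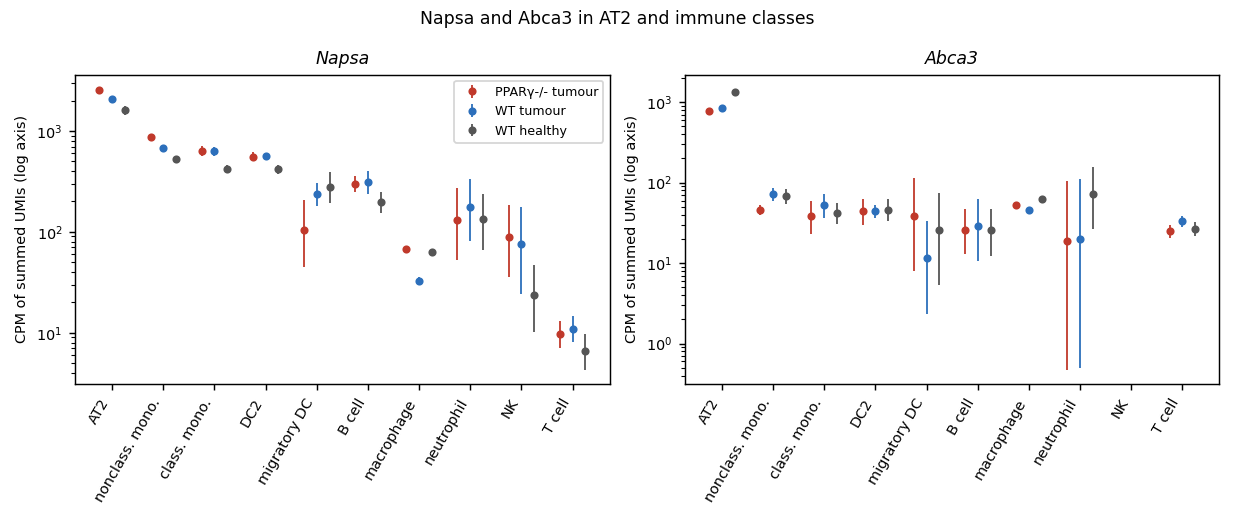
CPM of Napsa and Abca3 (log axis, 95% Poisson intervals) in AT2 cells and immune classes of at least 10 cells, coloured by library. Napsa runs from 865 CPM in nonclassical monocytes of PPARγ-/- tumour to 9.66 CPM in its T cells, whereas Abca3 lies under 100 CPM in each immune class; classes with 0 UMIs have no point.

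Between the libraries, Napsa was the 1 member counted as higher in macrophages of PPARγ-/- tumour, at 67.7 against 32.6 CPM in WT tumour (2.08-fold, 1.88 to 2.29), where 11.9% of 12557 measured genes were higher. Lamp3, at 2.43 against 3.82 CPM on 52 and 68 UMIs, was the 1 member counted as lower, against 18.3% of genes. Different clusters hold most macrophages of each library: cluster 2, of the interstitial or monocyte-derived class, held 1160 of 1315 in PPARγ-/- tumour, alveolar cluster 9 held 949 of 1261 in WT tumour, and alveolar cluster 25 held 894 of 999 in WT healthy. Within WT tumour itself Napsa was at 27.8 CPM in alveolar and 89.2 CPM in interstitial or monocyte-derived macrophages. In PPARγ-/- tumour those classes had 28.0 and 70.5 CPM, so within neither class was Napsa higher by 1.5-fold. The interstitial or monocyte-derived class does not compare like cells, however. Cluster 2 made up 1160 of its 1211 cells in PPARγ-/- tumour, and cluster 7 made up 175 of its 180 cells in WT tumour. Cluster 2 had 7 of the 12 markers of that class raised. Its leading genes included Apoe, C1qa, C1qb and C1qc of that class and the alveolar marker Chil3. The smaller classes held 104 alveolar cells in PPARγ-/- tumour and 180 interstitial or monocyte-derived cells in WT tumour. The part of the class mix in the difference over all macrophages was not tested. At a mitochondrial limit of 5% Napsa stood on the other side, at a log2 ratio of -0.26. Without the 4 cells of high Sftpc, 6 of 9 members were counted as lower in PPARγ-/- tumour in place of 1. The share of all genes was not computed without these cells, so that count has no background beside it.

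In WT tumour macrophages against WT healthy ones, 7 of 9 members were counted as higher, where 8.67% of 12172 genes were, and 1 of 9 as lower, against 12.4%. The 7 were Sftpa1, Sftpb, Sftpc, Sftpd, Lamp3, Slc34a2 and Cxcl15, at 4.78-fold to 7.27-fold, and free RNA of the same genes differed the same way, by 23475 against 3556 CPM for Sftpc. Napsa was lower, at 32.6 against 62.7 CPM, and Abca3 was at 46.0 against 62.1 CPM without reaching 1.5-fold. The 2 members above the free RNA proportion were thus the 2 that did not follow free RNA between these libraries. Nonclassical monocytes had 6 of 8 measured members higher in WT tumour than in WT healthy, against 5.04% of 8147 genes, and 0 lower, against 5.47%, among the higher ones Sftpc at 499 against 40.4 CPM. Between PPARγ-/- tumour and WT tumour they had 0 of 9 higher, against 4.5% of 9239 genes, and 6 of 9 lower, against 4.47%, with Sftpc at 230 against 499 CPM, in the direction of free RNA at 15800 against 23475 CPM.

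The wider surfactant pathway was read in AT2 cells from lists chosen for function. Between PPARγ-/- tumour and WT tumour, 0 of 10 transcription factors, 1 of 16 genes of phospholipid synthesis, 1 of 17 of lamellar body trafficking and 2 of 10 other secreted products were counted as higher, and 0, 0, 1 and 0 as lower, where 2.76% of all measured genes were higher and 6.26% lower. The medians were -0.11, -0.06, -0.09 and 0.24 beside -0.11 over all genes. Fabp5, a fatty acid binding protein, was at 1097 CPM in PPARγ-/- tumour against 275 in WT tumour. Dlk1, a NOTCH ligand family member placed in the trafficking list, was at 184 against 23.3 CPM. Lyz1, a lysozyme whose reads could be shared with its close copy Lyz2, was at 46.8 against 1.46 CPM, on 114 and 4 UMIs, and Scgb3a2 at 10.3 against 1.82 CPM, on 25 and 5 UMIs. Fabp5, Dlk1 and Lyz1 were also among the leading genes of E0, the cluster that took a larger part of the PPARγ-/- tumour AT2 cells. Within E0 alone the phospholipid, trafficking and secreted lists still gave 1, 1 and 2 genes higher and 1, 1 and 0 lower. Of all genes there, 2.32% were higher and 6.41% lower. The part of the cluster mix in these differences was not tested. Over all AT2 cells Lrrk2, a kinase whose loss is known to enlarge lamellar bodies in rodents, was lower, at 125 against 219 CPM. Of 9 measured genes of surfactant clearance in macrophages, read in AT2 cells, Abca1 was lower, at 30.4 against 54.0 CPM.

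More of these genes stood apart between WT tumour and WT healthy AT2 cells, where 7.35% of all measured genes were higher and 6.02% lower. Transcription factors gave 1 higher and 3 lower of 10: Klf5 at 147 against 91.5 CPM, Foxa1 at 43.4 against 79.0, Gata6 at 82.4 against 129 and Etv5 at 312 against 524. Phospholipid synthesis gave 1 higher and 4 lower of 16. Scd1, the stearoyl-CoA desaturase, was at 7687 against 5015 CPM, whereas Pcyt1a, which catalyses the rate-limiting step to phosphatidylcholine, was at 94.1 against 171 CPM, Gpam at 39.0 against 137 and Fabp5 at 275 against 1144. Other secreted products gave 1 higher and 5 lower of 9, with a median of -1.44. Lcn2, an iron-trapping lipocalin, was at 1211 against 591 CPM, and Lyz1 at 1.46 against 794, Il33, an alarmin cytokine, at 129 against 466, and Hc, complement C5, at 1033 against 3535. Chil1 and Lyz2 were the other 2 counted as lower. The trafficking list gave 1 higher of 16, Dlk1, with 64 against 0 UMIs. As a NOTCH ligand family member, Dlk1 does not stand for trafficking itself. The list gave 1 lower, Atp8a1, a phospholipid flippase, at 606 against 1177 CPM. Clearance genes gave 0 higher and 1 lower of 7, Lpl, on 29 and 18 UMIs. Etv5, Hc and Chil1 were among the markers that named the AT2 cells.

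Macrophages, the cells that clear surfactant, had 4 of 16 clearance genes higher and 3 lower in PPARγ-/- tumour than in WT tumour, where 11.9% of all measured genes were higher and 18.3% lower, so the count lower is near that of all genes. Abca1, the cholesterol exporter, was at 256 against 27.5 CPM, Npc2 at 1253 against 759 and Msr1 at 231 against 123. Lpl, lipoprotein lipase, was at 1935 against 3267 CPM, Spi1 at 266 against 427 and the scavenger receptor Marco at 13.1 against 307. Interstitial or monocyte-derived cells were 1211 of 1315 macrophages in PPARγ-/- tumour, and alveolar cells 1081 of 1261 in WT tumour. Marco was among the markers that named alveolar macrophages. The part of the class mix in these differences was not tested. In WT tumour against WT healthy 2 clearance genes were higher and 4 lower of 16, beside 8.67% and 12.4% of all measured genes. Lipa, the lysosomal acid lipase, was at 947 against 545 CPM and the cholesterol exporter Abcg1 at 778 against 1537 CPM. Pparg itself, the fourth of those higher in PPARγ-/- tumour, was at 362 CPM in PPARγ-/- tumour, 156 in WT tumour and 193 in WT healthy. A 3′ tag can lie outside the deleted part, and the labels do not name the floxed exons, so this level checks nothing about the deletion.

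By likeness of pattern over 28 sums of 12 classes with at least 50 cells (Pearson correlation of log2 CPM with 1 added, over 4566 genes), Sfta2, a secreted lung product and 1 of the markers that named AT2 cells, led for 5 members. It reached 0.93 for Sftpa1, 0.97 for Sftpb, 0.95 for Sftpc, 0.97 for Sftpd and 0.95 for Slc34a2. Lgi3 led for Lamp3 at 0.97, followed by Sfta2 at 0.96, and Lcn2 led for Cxcl15 at 0.93. The 2 members with other patterns had other neighbours, with H1f0 at 0.86, Acsl4 at 0.80 and Car8 at 0.79 for Abca3, and Adssl1 at 0.88, Alcam at 0.86 and Grk3 at 0.80 for Napsa. Sums of 1 library share its depth and free RNA, so these values describe the pattern and carry no test.

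Egfr is the receptor gene whose mutant form the transgene encodes. In AT2 cells it was at 43.9 CPM in PPARγ-/- tumour, 61.6 in WT tumour and 12.5 in WT healthy, the last on 3 UMIs. Club cells had 7.07 CPM in PPARγ-/- tumour and 30.4 in WT tumour, on 1 and 3 UMIs, and Krt7 epithelium of WT tumour had 82.2 CPM. How reads of the transgene entered these counts was not tested. AT2 cells of the tumour libraries were not divided into tumour cells and others.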

How the data were processed

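Raw UMI counts per gene and barcode were deposited by the authors for 3 libraries without a cell filter, 32285 genes each. The submitters' processing notes list mm10, Seurat 4.0.1 and Cell Ranger 6.0.1. Values were checked to be whole numbers. The strand setting of the counting is not given in the sources used here.

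Barcodes with at least 1000 UMIs, 500 genes and at most 10% mitochondrial UMIs were kept, 5137 in PPARγ-/- tumour, 4374 in WT tumour and 2947 in WT healthy. Scrublet (through scanpy 1.11.5, expected rate 6%) removed 142, 106 and 53 of them. Counts scaled to 10000 per cell gave Leiden clusters (2000 variable genes without the 9 members, 30 components, 15 neighbours, resolution 1.0, and 0.5 within the epithelium), all libraries together and without integration. A cluster was named from at least 3 markers raised 4-fold in at least 10% of its cells, and left unnamed where its leading genes went against the name.

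UMIs were summed per class and library and given as CPM with exact 95% Poisson intervals; ratios of 2 sums used the conditional binomial (Clopper-Pearson) and genes with at least 20 UMIs over both. UMIs are molecules, and each is 1 tag per transcript, so levels were not divided by length. Intervals cover counting error only. Each cell was thinned to 1000 UMIs before shares of detecting cells were computed. Barcodes of 10 to 100 UMIs gave free RNA. The counting rule was tested on simulated counts. Replicates could not be compared, since each group had 1 library of pooled mice.

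The 9 members, the 5 pathway lists, the comparisons and the alternatives were chosen with earlier results of these data known. Genes were named by rule: the members, Nkx2-1, Pparg and Egfr, up to 3 highest and 3 lowest list genes past 1.5-fold in AT2 cells, and the 3 genes most like each member in pattern; the macrophage clearance genes, Ptprc, Xist and overlapping genes were named in addition, after their values were seen. Alternatives were other mitochondrial limits and depth minimums, doublets kept, other clusterings, other scalings and other free RNA ranges. Promoter sequences are RefSeq's on GRCm38.p6, matched by symbol for 6 of 9 members, and gene coordinates are GENCODE's on GRCm38.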

Additional observations from a re-analysis of the deposited data

How the results depend on the processing

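No paired analysis was possible because each group had 1 library, and leaving out a replicate was not possible for the same reason. Of the members' AT2 ratios under all alternatives, 238 kept their direction and their side of 1.5-fold, 7 newly passed it, 3 no longer did and 22 turned round, 1 of them a counted value (Abca3); of the macrophage ratios 137 kept both, 17 newly passed, 2 no longer did and 6 turned round, 1 of them a counted value (Napsa). Among those that turned, Sftpb, Abca3 and Lamp3 of PPARγ-/- tumour over WT tumour did so at both mitochondrial limits in AT2 cells, and Sftpa1, Sftpc, Sftpd, Slc34a2 and Cxcl15 at 20% in macrophages. The causes were not tested. For the counts of members below, the share of all genes was computed in the largest AT2 cluster only, as given above.

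The AT2 median log2 ratio of PPARγ-/- tumour over WT tumour, 0.21, was 0.25 at a mitochondrial limit of 5%, 0.47 at 20%, 0.24 at a minimum of 2000 UMIs, 0.26 over non-member UMIs, 0.32 with all genes centred, 0.17 with each cell scaled alike, and, chosen after seeing the data, 0.29 with the mixed epithelial cells counted as AT2 and 0.10 in the largest AT2 cluster. At 20% 1 member, Sftpa1, was counted as higher. For WT tumour over WT healthy, the median of -0.24 became -0.15 at 5%, -0.58 at 20%, -0.27 at 2000 UMIs, 0.020 with each library clustered alone (48 AT2 cells in WT healthy), -0.30 over non-member UMIs, -0.37 centred, -0.15 with each cell scaled alike, -0.21 with mixed cells and -0.18 in the largest cluster. Members counted as higher there were 1 at 5% and 1 with libraries clustered alone, Napsa both times; those counted as lower were 4 at 20% and 0 with libraries clustered alone, with mixed cells or in the largest cluster. The Abca3 ratio of -0.64 was 0.095 at 5%, where 6 WT healthy AT2 cells were left.

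In macrophages of PPARγ-/- tumour over WT tumour, 0 members were higher at 5% and 2 at 20%, and 7 were lower at 5%, 0 at 20%, 6 with doublets kept, 2 with the members among the clustering genes and 6 without cells at 10000 CPM of Sftpc. Napsa turned to -0.26 at 5%. In WT tumour over WT healthy 0 were lower at 5%, and 7 were higher under every alternative run. The share of all genes was not computed for macrophages under these alternatives, so these counts have no background beside them. Sftpc in macrophages as a share of free RNA, 1.02% in PPARγ-/- tumour, was 0.636% at 5%, 1.62% at 20%, 0.667% with doublets kept, 0.795% with the members among the clustering genes, 0.941% with libraries clustered alone, 0.645% without the high cells, and 0.954% and 2.38% against barcodes of 1 to 50 and 100 to 500 UMIs. In WT tumour 0.796% became 0.966% at 5%, 0.836% at 20%, 1.37% against 100 to 500 UMIs and 0.747% without the high cells. In WT healthy 1.10% became 1.23% at 20% and 1.33% against 100 to 500 UMIs. The 26 WT healthy AT2 cells and 3 Egfr UMIs limit what depth can show there.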
